A study of Mus musculus with 6 samples.

Results

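The genes described here make up the glutathione, thioredoxin and antioxidant enzyme system of mouse bone marrow cells. They were chosen by symbol from a table of 11489 genes, as the peroxiredoxins, glutathione peroxidases, glutathione transferases, thioredoxin and glutaredoxin genes and quinone reductases, together with the superoxide dismutases, catalase, the enzymes that make and recycle glutathione, and sulfiredoxin. The rule used names only, no measured value, and found 55 genes in the table. Other genes of these families are not analysed here. The tissue label gives macrophages derived from bone marrow. The cells carried an eGFP reporter of Epor, the gene of the erythropoietin receptor, and were sorted by flow cytometry for the macrophage surface protein F4/80 and for eGFP. The groups were F4/80+ Epor-eGFP+ (3 libraries) and F4/80+ Epor-eGFP- (3 libraries), and both are labelled as macrophages of erythroblastic islands, the bone marrow sites where red cell precursors mature around a macrophage. The sources used here do not give the strain, age or sex of the mice, how the reporter was made or any treatment, and no label ties the replicate libraries to different mice. The p-values therefore describe how far the libraries scatter, which may be technical. The comparison asked how the sorted cells with the reporter differ from those without it.

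Superoxide dismutases turn superoxide into hydrogen peroxide, and catalase, peroxiredoxins and glutathione peroxidases reduce the peroxide. Glutathione, a tripeptide that is the main small thiol of the cell, is made by glutamate-cysteine ligase and glutathione synthetase, spent by peroxidases and transferases, and returned to its reduced form by glutathione reductase with NADPH. Thioredoxin does the same for protein disulfides and for peroxiredoxins, and thioredoxin reductase restores it with NADPH. Many of these genes are known targets of the transcription factor NRF2, which binds antioxidant response elements. Macrophages that engulf red cells or expelled nuclei handle heme and iron, and red cell precursors that make haemoglobin are exposed to peroxide, so both cell types rely on this system.

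Values are FPKM, fragment levels scaled to gene length and library size, which can be compared between genes. Summed FPKM over all genes ran from 467176 to 501037 in the Epor-eGFP+ libraries and from 505141 to 519650 in the Epor-eGFP- libraries. All Epor-eGFP+ totals thus lay below all Epor-eGFP- totals, and the read depth behind them is unknown. Epor was at 6.67, 3.43 and 7.78 FPKM in the Epor-eGFP+ libraries against 0.375, 0.414 and 0.217 FPKM in the Epor-eGFP- libraries, in the order of library numbers 0, 1 and 2, which is used throughout. Adgre1, the gene of F4/80, was at 143, 117 and 241 FPKM in the Epor-eGFP+ libraries against 136, 132 and 139 FPKM in the Epor-eGFP- libraries, and did not pass the test (adjusted p = 0.463). Of 15 tested macrophage markers 14 were higher in Epor-eGFP+ and none lower, and their summed level was 2364 to 8945 FPKM in Epor-eGFP+ against 271 to 331 FPKM in Epor-eGFP-. Of 22 tested erythroid markers 15 were higher and none lower (658 to 2107 FPKM in Epor-eGFP+ against 94.0 to 823 FPKM in Epor-eGFP-), and of 6 promyelocyte granule markers all 6 were higher (8066 to 10037 FPKM in Epor-eGFP+ against 1559 to 2906 FPKM in Epor-eGFP-). Of the higher markers, 2 of the macrophage list and 9 of the erythroid list reached the tested level of 1 FPKM only through Epor-eGFP+, so they had to differ. Lower were 12 of 13 neutrophil markers (13275 to 17245 FPKM in Epor-eGFP+ against 25120.2 to 39402 FPKM in Epor-eGFP-), 9 of 10 monocyte markers (1584 to 1824 FPKM in Epor-eGFP+ against 3428 to 4795 FPKM in Epor-eGFP-) and 6 of 11 eosinophil markers, with 2 higher (8649.8 to 16357 FPKM in Epor-eGFP+ against 15151 to 24824 FPKM in Epor-eGFP-). Prg2, an eosinophil granule gene, is listed at 0 in Epor-eGFP+ library 0. The label of island macrophages stands on cells in which neutrophil and eosinophil transcripts were abundant in both groups, and the part that the mix of cells has in the differences below was not tested. In bulk samples, more cells of a type and more RNA per cell cannot be told apart.

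The 55 genes together made up between 0.874% and 1.01% of the summed FPKM of a library, 4471 ± 392.05 FPKM in Epor-eGFP+ against 4735 ± 409 FPKM in Epor-eGFP- (SD, n = 3). In mean level over the 6 libraries, 11 genes were above 100 FPKM, 26 between 10 and 100 FPKM and 18 below 10 FPKM. Gpx1 alone held between 21.2% and 26.4% of the sum. The sums of the groups overlapped.

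Of the 55 genes, 52 had a mean of at least 1 FPKM and were tested, and 25 were higher and 5 lower in Epor-eGFP+ (limma on log2(FPKM + 1), Benjamini-Hochberg adjusted p below 0.05). Of all 10964 tested genes 49.0% were called, 22.7% higher and 26.3% lower, against 48.1% higher and 9.62% lower among the tested antioxidant genes. Of all called genes 46.3% were higher, and 59.5% after all libraries were scaled to the same total, when 28 antioxidant genes were higher and 5 lower. The median log2 fold change, Epor-eGFP+ over Epor-eGFP-, was 0.25 for these genes and -0.01 for all tested genes. Gsta4 and Gstt1 passed the filter only through their level in Epor-eGFP+, so they had to differ. Of the other 50 genes 23 were higher (46.0%) and 5 lower, with a median of 0.24, against 21.2% higher among the 10511 genes of the table with both group means at 1 FPKM or above. The 5 genes that fell were Prdx5, Gsr, Mgst1, Txnip and Nqo2. In 25 of the 52 genes all Epor-eGFP+ libraries lay above all Epor-eGFP- libraries, against 28.4% of all tested genes, and in 7 all lay below, against 31.9%. Without Gsta4 and Gstt1 the first count was 23. A rise of at least 1 on the log2 scale was found in 6 genes (4.92% of all tested genes), and a fall of that size in none (4.39%). Without Gsta4 and Gstt1 such a rise was found in 4 genes, against 3.41% of the genes with both means at 1 FPKM or above. The genes without a call had log2 fold changes from -0.26 to 0.67.

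**Figure D1:**
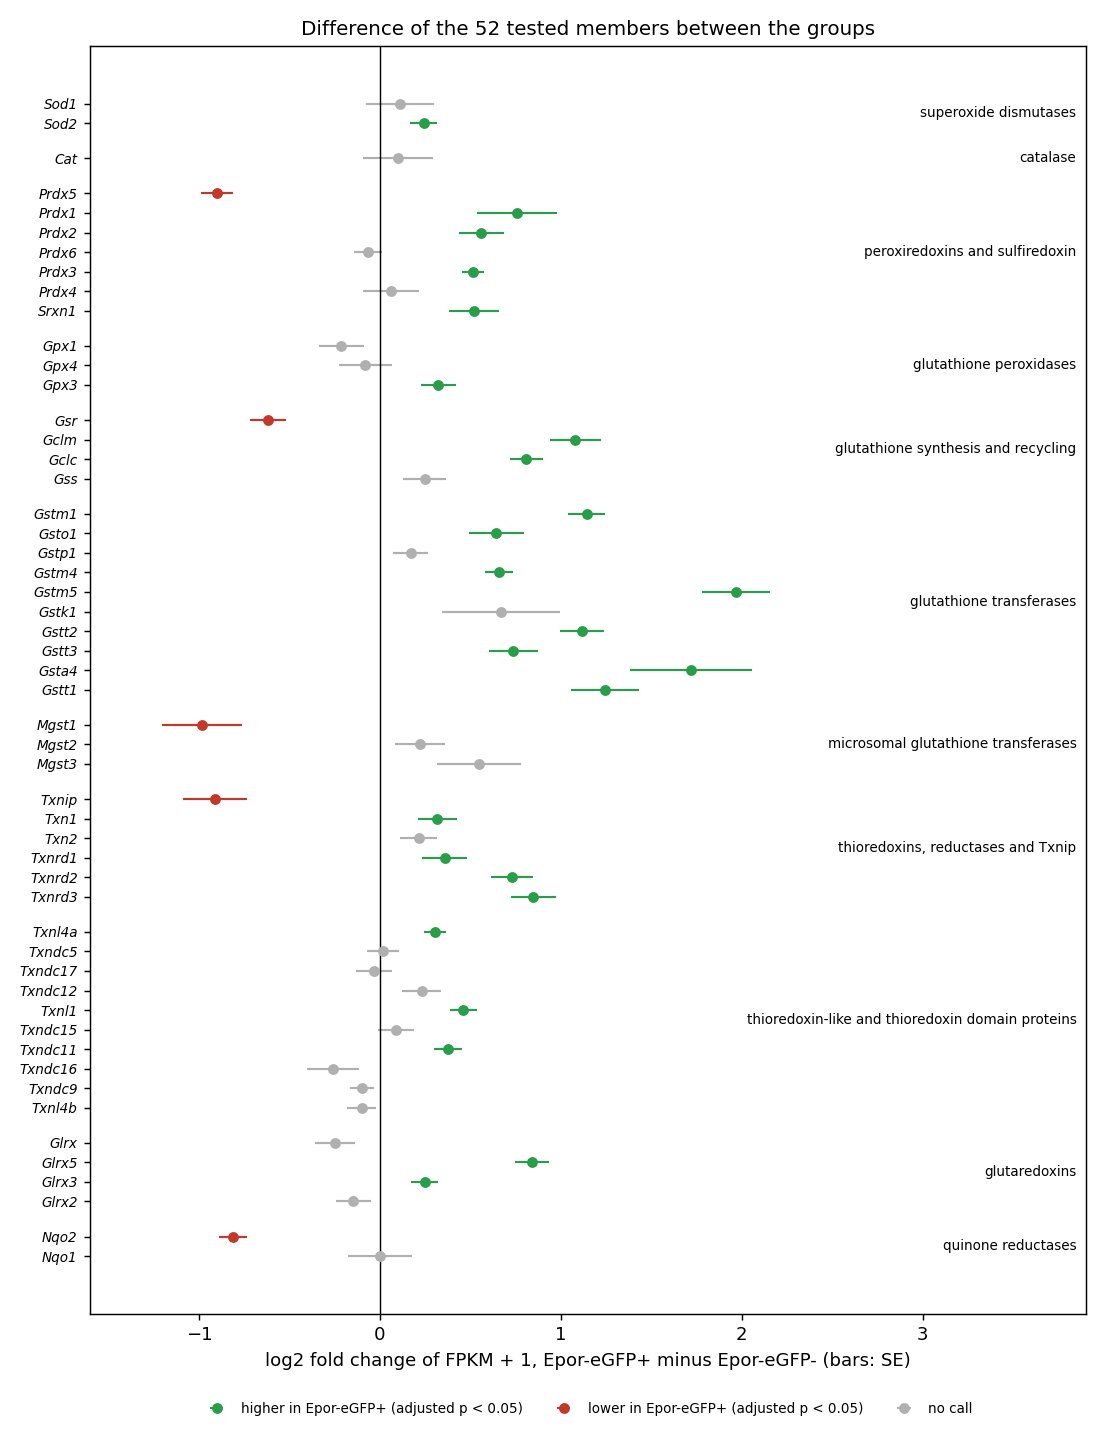
Log2 fold change (Epor-eGFP+ over Epor-eGFP-, on log2(FPKM + 1)) of the 52 tested antioxidant genes, grouped by role, with bars of 1 standard error and colours for genes called higher, called lower or not called. The glutathione transferases reach furthest to the right, up to 1.97 for Gstm5, and Mgst1, Txnip and Prdx5 furthest to the left.

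Leaving out both libraries numbered 0 reduced the calls to 10 higher and 2 lower, and leaving out Epor-eGFP+ library 0 alone to 18 higher and 5 lower. Of all tested genes 4.49% were higher and 8.40% lower in the first setting, and 14.9% and 18.8% in the second. In that first setting 12 of the 30 called genes kept their call, among 492 genes higher and 921 lower in the whole table. Of the 30 called genes, 12 kept the call in every alternative in which they were fitted, at most 17, and 23, these 12 included, in every such alternative except the one without both libraries numbered 0. The other 7, which are Glrx3, Gpx3, Prdx1, Sod2, Srxn1, Txn1 and Txnrd1, lost it in further settings. The 12 include Gstt1 and the 23 also Gsta4, which had to differ. All 30 kept their direction in every alternative. Leaving out libraries could not turn it, since the groups of each called gene did not overlap.

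The largest rises were among the cytosolic and mitochondrial glutathione transferases, which join glutathione to electrophilic compounds. Of 10 tested genes 8 rose and 2 had no call, and without Gsta4 and Gstt1 6 of 8 rose. Gstm5, a mu class transferase (GRCm38 chr3:107895821-107898686), was at 18.5, 12.1 and 13.3 FPKM in the Epor-eGFP+ libraries against 2.63, 3.83 and 2.45 FPKM in the Epor-eGFP- libraries. The groups did not overlap, and the mean was 4.92 times higher in Epor-eGFP+ (log2 fold change 1.97 ± 0.19 SE, adjusted p = 0.000625). Its exons overlap those of a gene on the opposite strand, whose reads cannot be told apart in a library that does not mark strand.

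Gstm1, the most abundant of the cytosolic and mitochondrial transferases in every library (chr3:108012255-108017973), was at 204, 204 and 227 FPKM in the Epor-eGFP+ libraries against 83.5, 103 and 100.4 FPKM in the Epor-eGFP- libraries. Its groups did not overlap, and the 3 libraries of each lay close together (log2 fold change 1.14 ± 0.10 SE, adjusted p = 0.000511). Of the 50-base stretches of its longest transcript, 23.1% also occur in other genes, so part of its signal could belong to relatives. Gstm4 rose in a narrower range, with 12.04 ± 0.718 FPKM in Epor-eGFP+ against 7.26 ± 0.324 FPKM in Epor-eGFP- (SD, n = 3; 0.66, adjusted p = 0.00105). The 3 mu class genes that were tested thus all rose.

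The theta class was low in level. Gstt2 (chr10:75831114-75837424) was at 9.11, 6.88 and 8.03 FPKM in the Epor-eGFP+ libraries against 3.60, 2.90 and 2.93 FPKM in the Epor-eGFP- libraries, with a log2 fold change of 1.12 ± 0.12 (SE, adjusted p = 0.000868). Gstt1 (chr10:75783813-75798584) was at 2.61, 1.57 and 2.52 FPKM in the Epor-eGFP+ libraries against 0.626, 0.278 and 0.184 FPKM in the Epor-eGFP- libraries, below 1 FPKM in every library without the reporter, and was tested only because of its level in Epor-eGFP+ (log2 fold change 1.24 ± 0.19 SE, adjusted p = 0.00233). Gstt3 was at 4.36 ± 0.869 FPKM in Epor-eGFP+ against 2.186 ± 0.172 FPKM in Epor-eGFP- (SD, n = 3; 0.74, adjusted p = 0.00485). These 3 genes lie close together on chromosome 10, between 75774115 and 75837424.

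Gsta4, an alpha class transferase known for acting on products of lipid peroxidation (chr9:78182774-78209349), was at 3.999, 2.37 and 8.18 FPKM in the Epor-eGFP+ libraries against 0.821, 0.585 and 0.506 FPKM in the Epor-eGFP- libraries. Its Epor-eGFP+ libraries spread over a 3.45-fold range, the widest of all 55 genes, and still lay above all Epor-eGFP- libraries (log2 fold change 1.72 ± 0.34 SE, adjusted p = 0.00616). It too was tested only because of its level in Epor-eGFP+. Gsto1, an omega class enzyme known for reducing its substrates rather than conjugating them, rose from 66.2 ± 6.93 to 105 ± 20.5 FPKM (SD, n = 3; 0.64, adjusted p = 0.0129). Gstk1, the kappa class enzyme of mitochondria and peroxisomes, was at 9.64, 4.50 and 13.6 FPKM in the Epor-eGFP+ libraries against 4.58, 5.03 and 5.32 FPKM in the Epor-eGFP- libraries. Its log2 fold change of 0.67 did not pass (adjusted p = 0.129, up to 0.450 over the alternatives and as low as 0.00378 without Epor-eGFP+ library 1), and Epor-eGFP+ library 1 lay below all Epor-eGFP- libraries while the other 2 lay above them.

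Gstp1, the pi class enzyme, was at 52.6 ± 3.29 FPKM in Epor-eGFP+ against 46.7 ± 4.999 FPKM in Epor-eGFP- (SD, n = 3) and did not pass the test (0.17, adjusted p = 0.188). It shares 62.3% of its 50-base stretches with other genes, all of them also in Gstp2, so the estimates of Gstp1 and Gstp2 are uncertain singly. Gstm2, Gstm7 and Gstp2 had means below 1 FPKM and were not tested, at 1.08, 1.01 and 1.46 FPKM in Epor-eGFP+ against 0.334, 0.668 and 0.447 FPKM in Epor-eGFP-. With no filter on level, Gstm2 and Gstp2 were called higher and Gstm7 was not. Summed over the 13 transferase genes, the level was 428 ± 41.9 FPKM in Epor-eGFP+ against 231 ± 11.8 FPKM in Epor-eGFP- (SD, n = 3).

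The membrane-bound microsomal transferases moved otherwise. Mgst1, which detoxifies lipid hydroperoxides in the endoplasmic reticulum and outer mitochondrial membrane (chr6:138140316-138156755), was at 97.3, 75.8 and 139 FPKM in the Epor-eGFP+ libraries against 207, 169 and 227 FPKM in the Epor-eGFP- libraries. It was 1.94 times lower in Epor-eGFP+ by the means, with no overlap of the groups (log2 fold change -0.98 ± 0.22 SE, adjusted p = 0.0106). Mgst2, a relative of leukotriene C4 synthase, had a log2 fold change of 0.22 (adjusted p = 0.217, and 0.049998 with the library number as a block, in a range of 0.049998 to 0.549 over the alternatives). The log2 fold change of Mgst3 was 0.55 (adjusted p = 0.0910, from 0.0286 to 0.527 over the alternatives). Mgst1 held most of the level of the class, whose sum was 162 ± 28.9 FPKM in Epor-eGFP+ against 249 ± 26.0 FPKM in Epor-eGFP- (SD, n = 3).

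**Figure D2:**
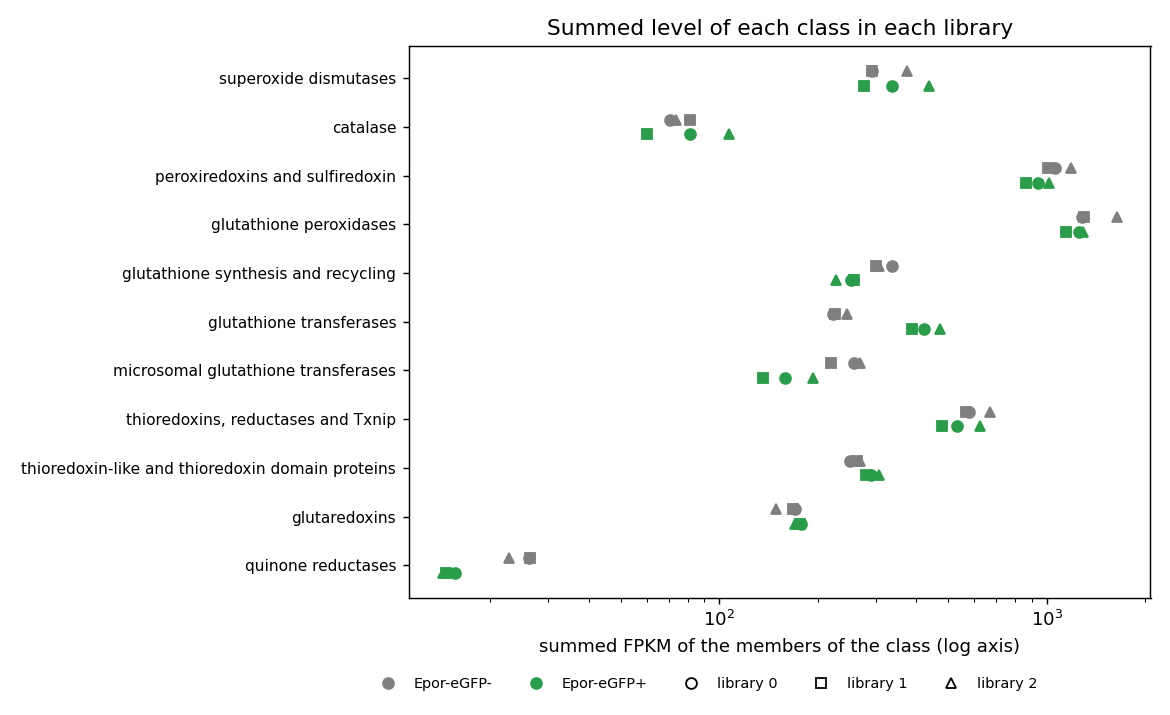
Summed FPKM of the genes of each role class in every library, with Epor-eGFP- and Epor-eGFP+ in different colours, library numbers as shapes and a log axis. The sums of the glutathione transferases and of the thioredoxin-like and thioredoxin domain genes are higher in all 3 Epor-eGFP+ libraries, and the sums of the microsomal transferases, of glutathione synthesis and recycling and of the quinone reductases are lower in all 3.

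The enzyme that starts glutathione synthesis rose in both of its subunits. Gclm, the modifier subunit of glutamate-cysteine ligase (chr3:122245557-122270732), was at 37.2, 32.4 and 36.4 FPKM in the Epor-eGFP+ libraries against 17.1, 19.0 and 12.9 FPKM in the Epor-eGFP- libraries, and the lowest Epor-eGFP+ library was well above the highest Epor-eGFP- library (log2 fold change 1.08 ± 0.14 SE, adjusted p = 0.00142). Gclc, the catalytic subunit, was at 16.8, 16.1 and 16.2 FPKM in the Epor-eGFP+ libraries against 9.47, 9.61 and 7.79 FPKM in the Epor-eGFP- libraries, with a log2 fold change of 0.81 ± 0.09 (SE, adjusted p = 0.000957). In level per length, Gclm was above Gclc in all 6 libraries. Gss, which adds glycine in the second step of synthesis, had a log2 fold change of 0.25 and did not pass (adjusted p = 0.126, and 0.0289 with the library number as a block, the lowest of its alternatives, which reached 0.474).

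Gsr, glutathione reductase (chr8:33652523-33698163), was the most abundant gene of glutathione synthesis and recycling in every library and fell. It was at 188, 201 and 163 FPKM in the Epor-eGFP+ libraries against 301, 265 and 278 FPKM in the Epor-eGFP- libraries, 1.53 times lower by the means and without overlap (log2 fold change -0.62 ± 0.10 SE, adjusted p = 0.00317). Without both libraries numbered 0 its adjusted p was 0.0677, the highest over the alternatives.

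To show what the promoters of such genes hold, RefSeq sequences of build GRCm38.p6 were searched, from 250 bases before to 50 bases after each start site, for the core of the antioxidant response element. The core was written as TGACNNNGC, with TGAGNNNGC added after the matches of the first form were seen, and both strands were read. The forms cannot match the same bases on 1 strand, and no window of these genes held overlapping matches of both. Of the 48 antioxidant genes with an entry, 16 (33.3%) held a match, against 35.8% of the tested genes with an entry and 30.8% of all genes of the promoter table. A match was found in 8 of the 20 genes that rose (40.0%), 1 of the 4 that fell and 5 of the 21 without a call (23.8%). The share in the antioxidant genes was thus near that in all genes, and a match is a description of letters, not of a bound site.

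The 250 bases before the start site of 4 genes that rose are shown 5′ to 3′ with matches in capitals, chosen after their values were seen, since they span glutathione synthesis, conjugation and peroxide reduction. All 4 hold a match, so they do not stand for the genes that rose, of which 8 of 20 held one. Gstm1, Gstm4, Prdx2 and Prdx3 also rose, hold no match and are not shown. The 4 stretches shown lie on the plus strand, Gclm at chr3:122245307-122245556, Gstm5 at chr3:107895604-107895853, Prdx1 at chr4:116685349-116685598 and Srxn1 at chr2:152105274-152105523. The Gclm match starts 134 bases and that of Prdx1 133 bases before the start site. Gstm5 has matches at 196 and 42 bases and Srxn1 at 158 and 45 bases.
Gclm: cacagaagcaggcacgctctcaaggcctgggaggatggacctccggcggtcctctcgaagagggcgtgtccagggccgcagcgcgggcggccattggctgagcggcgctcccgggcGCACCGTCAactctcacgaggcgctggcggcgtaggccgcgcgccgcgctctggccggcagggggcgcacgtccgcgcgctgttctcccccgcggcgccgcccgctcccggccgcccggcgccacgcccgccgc
Gstm5: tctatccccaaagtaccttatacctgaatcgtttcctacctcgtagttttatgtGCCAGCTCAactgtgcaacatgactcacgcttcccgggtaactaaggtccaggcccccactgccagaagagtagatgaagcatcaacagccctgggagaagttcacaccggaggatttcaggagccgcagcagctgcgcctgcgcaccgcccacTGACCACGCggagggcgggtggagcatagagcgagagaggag
Prdx1: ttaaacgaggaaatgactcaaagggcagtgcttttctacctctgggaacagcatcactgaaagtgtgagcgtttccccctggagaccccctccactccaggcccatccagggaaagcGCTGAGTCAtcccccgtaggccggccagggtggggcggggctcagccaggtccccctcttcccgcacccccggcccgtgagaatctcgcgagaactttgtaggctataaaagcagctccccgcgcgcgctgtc
Srxn1: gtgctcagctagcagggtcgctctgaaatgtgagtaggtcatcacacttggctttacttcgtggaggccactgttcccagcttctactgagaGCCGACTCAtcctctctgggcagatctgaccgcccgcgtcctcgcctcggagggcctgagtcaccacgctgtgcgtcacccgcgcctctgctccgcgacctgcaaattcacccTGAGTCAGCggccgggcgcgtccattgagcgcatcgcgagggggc
Mgst1, which fell, holds a match 56 bases before its start site at chr6:138140277-138140526, shown for contrast.
Mgst1: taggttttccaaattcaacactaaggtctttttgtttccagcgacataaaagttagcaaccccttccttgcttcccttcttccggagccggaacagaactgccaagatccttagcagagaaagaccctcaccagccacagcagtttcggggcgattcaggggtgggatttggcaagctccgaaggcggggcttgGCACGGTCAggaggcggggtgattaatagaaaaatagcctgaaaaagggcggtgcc

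Peroxiredoxins, which reduce hydrogen peroxide through a reactive cysteine, divided by member. Prdx5, the most abundant peroxiredoxin here and one found in mitochondria, peroxisomes and cytosol (chr19:6906697-6910106), was at 359.9, 383 and 358 FPKM in the Epor-eGFP+ libraries against 697, 626 and 738 FPKM in the Epor-eGFP- libraries. The groups were far apart compared with their spread (log2 fold change -0.90 ± 0.09 SE, adjusted p = 0.000694), and the fall by the means was 1.87-fold. Its exons overlap those of Trmt112 on the other strand, whose reads the kit cannot separate. Prdx1, the cytosolic form, was at 255, 195 and 350.3 FPKM in the Epor-eGFP+ libraries against 138, 140.1 and 184 FPKM in the Epor-eGFP- libraries (0.76, adjusted p = 0.0270). It was highest in Epor-eGFP+ library 2, and its adjusted p rose to as much as 0.190 when libraries numbered 0 were left out.

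Prdx2, a form that red cells hold in large amounts, was at 173, 138 and 158 FPKM in the Epor-eGFP+ libraries against 96.2, 99.2 and 122 FPKM in the Epor-eGFP- libraries (0.56, adjusted p = 0.00963). Prdx3, the mitochondrial form, was at 52.7, 49.8 and 51.9 FPKM in the Epor-eGFP+ libraries against 35.98, 35.99 and 35.0 FPKM in the Epor-eGFP- libraries. Its spread within each group was small, and the groups did not overlap (log2 fold change 0.52, adjusted p = 0.00111). Prdx4 of the secretory pathway (0.06) and Prdx6 (-0.07) did not pass the test. Srxn1, sulfiredoxin, which repairs overoxidised peroxiredoxins, was low at 5.02, 3.67 and 5.10 FPKM in the Epor-eGFP+ libraries against 3.38, 2.62 and 2.67 FPKM in the Epor-eGFP- libraries (0.52, adjusted p = 0.0202). The genes that rose did not outweigh Prdx5 in quantity, since the sum of the 7 genes was 943 ± 75.9 FPKM in Epor-eGFP+ against 1084 ± 89.4 FPKM in Epor-eGFP- (SD, n = 3).

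**Figure D3:**
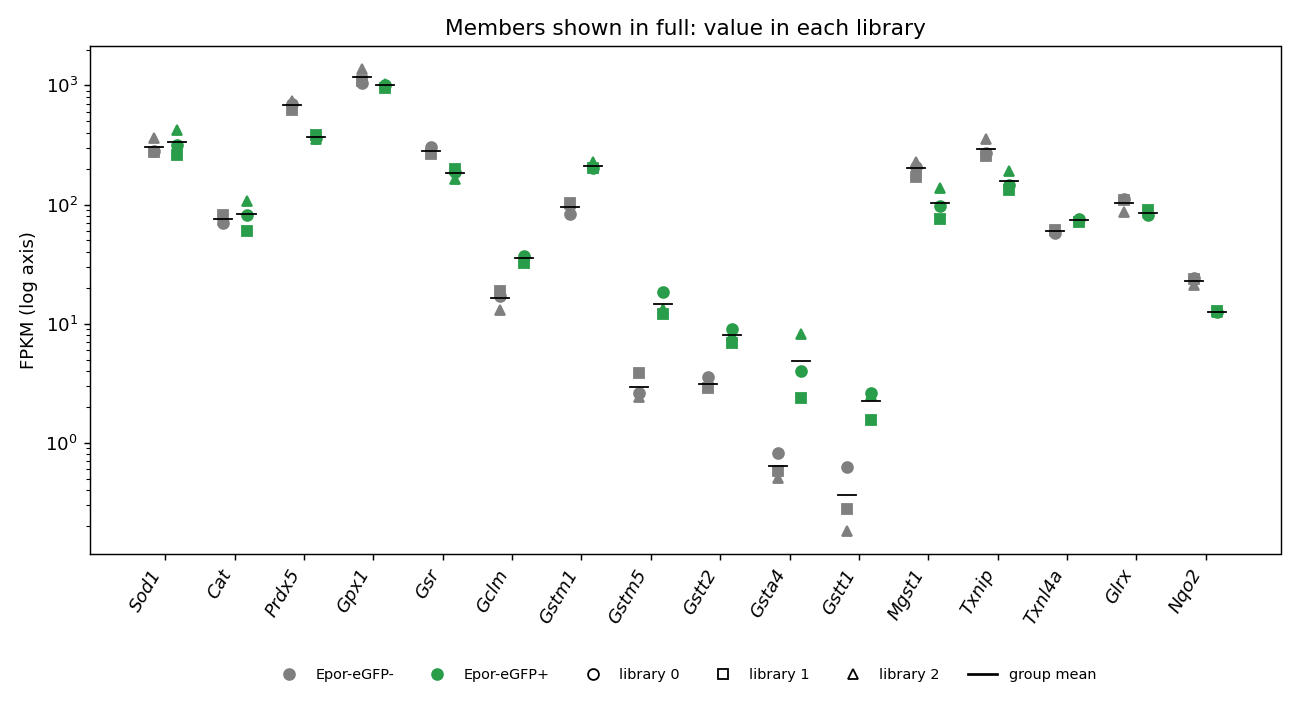
FPKM in every library, on a log axis, of the 16 antioxidant genes shown in full by the naming rule, with Epor-eGFP- and Epor-eGFP+ libraries in different colours and their numbers marked. Gstm5, Gsta4 and Gstt1 show the widest gaps between the groups, and Sod1, Cat and Glrx overlap.

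The glutathione peroxidases, selenoenzymes that spend glutathione to reduce peroxides, were called in 1 of 3 genes, against 49.0% of all tested genes. Gpx1, the most abundant gene of the whole set (chr9:108338903-108340343), was at 1014, 953 and 1031 FPKM in the Epor-eGFP+ libraries against 1044, 1083 and 1372 FPKM in the Epor-eGFP- libraries. All Epor-eGFP+ libraries lay below all Epor-eGFP- libraries, but the difference was small beside the spread of the Epor-eGFP- libraries and did not pass (log2 fold change -0.21 ± 0.12 SE, adjusted p = 0.196; exact two-sided permutation p = 0.1, the smallest that 3 against 3 libraries allow). Every antioxidant gene called by limma had the same p of 0.1 in that exact test, and none could go below it. Gpx4, which reduces lipid hydroperoxides in membranes, was at 217 ± 36.7 FPKM in Epor-eGFP+ against 228 ± 24.9 FPKM in Epor-eGFP- (SD, n = 3; -0.08, adjusted p = 0.669), and 61.7% of its 50-base stretches recur in a pseudogene. Gpx3, the secreted form, rose by 0.32 on the log2 scale, at 13.7, 14.2 and 15.4 FPKM in the Epor-eGFP+ libraries against 10.4, 12.9 and 10.8 FPKM in the Epor-eGFP- libraries (adjusted p = 0.0313, up to 0.194 over the alternatives).

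Of the enzymes at the entrance of the system, Sod1, the cytosolic superoxide dismutase (chr16:90220754-90226329), was at 319, 261 and 421 FPKM in the Epor-eGFP+ libraries against 279, 279 and 359 FPKM in the Epor-eGFP- libraries. The Epor-eGFP+ libraries spanned the range of the others, and the test did not pass (0.11, adjusted p = 0.652). Cat, catalase of the peroxisome (chr2:103453849-103485160), was at 81.4, 60.2 and 107 FPKM in the Epor-eGFP+ libraries against 70.7, 81.5 and 73.6 FPKM in the Epor-eGFP- libraries (0.10, adjusted p = 0.687). For both genes Epor-eGFP+ library 2 was the highest and library 1 the lowest of all 6 libraries, and without library 2 the log2 fold change of Cat was -0.10 and that of Sod1 -0.07. Sod2, the mitochondrial dismutase, rose by 0.24, from 13.5 ± 0.921 to 16.2 ± 0.493 FPKM (SD, n = 3; adjusted p = 0.0332, up to 0.320 over the alternatives).

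In the thioredoxin branch, Txnip, which binds thioredoxin and blocks its active site (chr3:96557957-96561883), was at 147, 132 and 191 FPKM in the Epor-eGFP+ libraries against 271, 255 and 357 FPKM in the Epor-eGFP- libraries. It was 1.88 times lower by the means, with no overlap (log2 fold change -0.91 ± 0.18 SE, adjusted p = 0.00600), and its exons overlap those of Gm15441 on the other strand. Txn1, cytosolic thioredoxin, was at 235, 209 and 277 FPKM in the Epor-eGFP+ libraries against 193, 193 and 188 FPKM in the Epor-eGFP- libraries and rose by 0.32 (adjusted p = 0.0474). That call was lost in 8 of 17 alternatives, with an adjusted p of up to 0.238. Txn2, the mitochondrial thioredoxin, had a log2 fold change of 0.21 and did not pass (adjusted p = 0.126). It was called higher in 5 alternatives, under the common total, the upper quartile or quantile normalization and without Epor-eGFP- library 2 or both libraries numbered 2, in a range of 0.0210 to 0.532.

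The thioredoxin reductases, selenoenzymes that restore thioredoxin with NADPH, all rose. Txnrd3, which also carries a glutaredoxin domain, was at 4.07, 4.49 and 4.30 FPKM in the Epor-eGFP+ libraries against 2.08, 2.28 and 1.502 FPKM in the Epor-eGFP- libraries (0.85, adjusted p = 0.00207). Txnrd2, the mitochondrial form, was at 13.3, 10.2 and 12.2 FPKM in the Epor-eGFP+ libraries against 6.90, 5.99 and 7.38 FPKM in the Epor-eGFP- libraries (0.73, adjusted p = 0.00296). Txnrd1, the cytosolic form and the most abundant of the 3, was at 43.3, 38.8 and 48.5 FPKM in the Epor-eGFP+ libraries against 35.4, 37.4 and 28.7 FPKM in the Epor-eGFP- libraries. Its log2 fold change of 0.36 passed narrowly (adjusted p = 0.0491). It was called in 10 of 18 settings, the primary fit included, as Txn1 was. The call was lost with no mean-variance trend, with the library number as a block (adjusted p = 0.0785) and in several fits that left out libraries. Its adjusted p ran from 0.0175 to 0.207 over the alternatives.

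Of the 10 thioredoxin-like and thioredoxin domain genes 3 rose (30.0%), 7 had no call and none fell. Among all tested genes 22.7% rose and 26.3% fell, so the share that rose was near that of all. Txnl4a, a small protein of the spliceosome (chr18:80206795-80225855), was at 75.2, 72.1 and 75.2 FPKM in the Epor-eGFP+ libraries against 57.8, 61.3 and 60.4 FPKM in the Epor-eGFP- libraries, a small but narrow difference (log2 fold change 0.31 ± 0.06 SE, adjusted p = 0.00740). Txnl1, a thioredoxin-like protein bound to the proteasome, rose by 0.46 (adjusted p = 0.00313) and Txndc11 of the endoplasmic reticulum by 0.38 (adjusted p = 0.00731). Txndc12, another protein of that compartment, had a log2 fold change of 0.23 (adjusted p = 0.112, and 0.0197 with the library number as a block, the lowest of its alternatives, which reached 0.319). Txndc5, a disulfide isomerase, was close to equal at 50.7 ± 4.03 FPKM in Epor-eGFP+ against 50.1 ± 3.56 FPKM in Epor-eGFP- (SD, n = 3; 0.02, adjusted p = 0.897). The other 5, Txndc9, Txndc15, Txndc16, Txndc17 and Txnl4b, had log2 fold changes from -0.26 to 0.09, and Txndc16 was called lower without Epor-eGFP+ library 2 or both libraries numbered 2 (lowest adjusted p = 0.0110).

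Glutaredoxins use glutathione to reduce disulfides or to carry iron-sulfur clusters, and 2 of 4 rose, against 22.7% of all tested genes. Glrx5, the mitochondrial member needed for iron-sulfur cluster assembly and heme synthesis in red cell precursors, was at 61.7, 50.7 and 49.6 FPKM in the Epor-eGFP+ libraries against 29.3, 29.5 and 30.0 FPKM in the Epor-eGFP- libraries. The Epor-eGFP- libraries differed among themselves by less than 1 FPKM, and the rise was 0.84 ± 0.09 on the log2 scale (SE, adjusted p = 0.000942). Glrx3, a cytosolic member that also carries clusters, rose by 0.25 (adjusted p = 0.0290, up to 0.264 over the alternatives), and 20.4% of its 50-base stretches recur in Gm12669. Glrx, the classical disulfide reductase of the cytosol and the most abundant of the 4 (chr13:75839868-75850154), was at 81.3, 89.6 and 85.2 FPKM in the Epor-eGFP+ libraries against 111, 109 and 86.4 FPKM in the Epor-eGFP- libraries, overlapped between the groups and did not pass (-0.25, adjusted p = 0.1001), but was called lower without Epor-eGFP- library 2 or both libraries numbered 2 (lowest adjusted p = 0.0143, highest over the alternatives 0.526). Glrx2 had a log2 fold change of -0.15 (adjusted p = 0.249).

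The quinone reductases differed from each other. Nqo2, which uses dihydronicotinamide riboside (chr13:33964687-33988443), was at 12.6, 12.8 and 12.5 FPKM in the Epor-eGFP+ libraries against 24.1, 24.0 and 21.0 FPKM in the Epor-eGFP- libraries. It had the smallest standard error of the 5 genes that fell (log2 fold change -0.81 ± 0.08 SE, adjusted p = 0.000604). Nqo1, a classical NRF2 target, was low and nearly equal at 2.17 ± 0.723 FPKM in Epor-eGFP+ against 2.13 ± 0.336 FPKM in Epor-eGFP- (SD, n = 3; 0.00, adjusted p = 0.995).

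**Figure D4:**
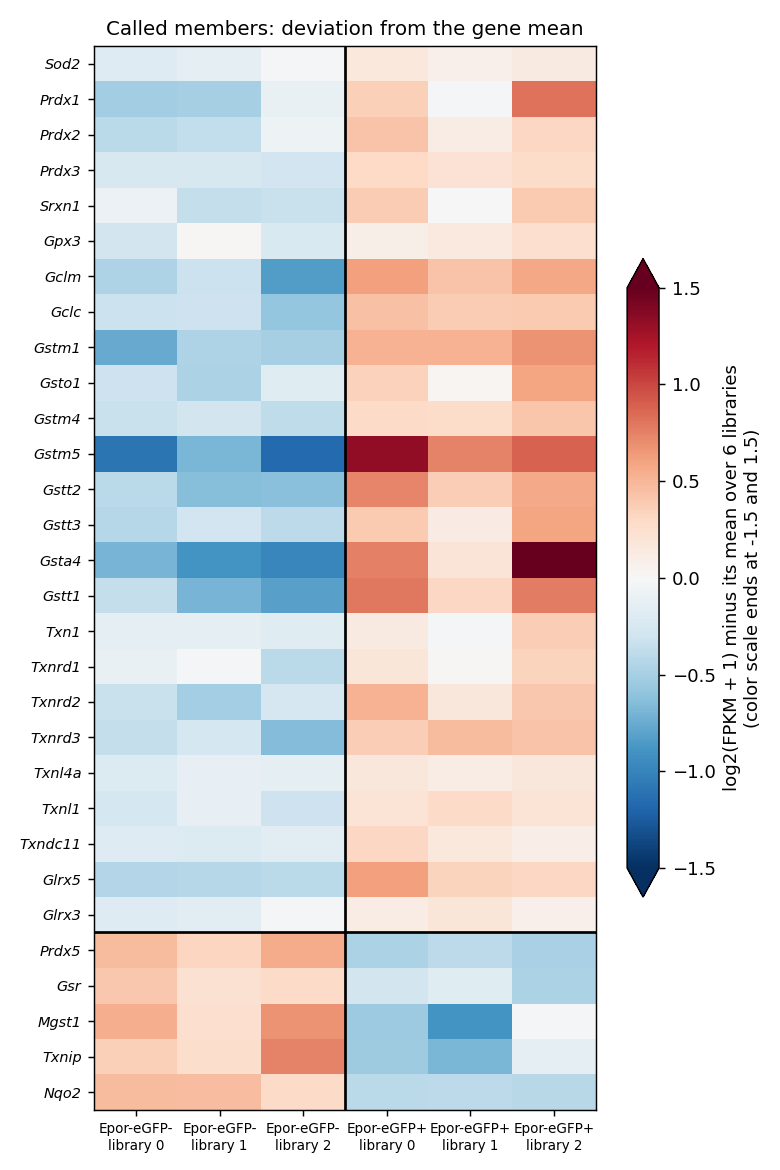
Each called antioxidant gene in each of the 6 libraries, as log2(FPKM + 1) minus the mean of the gene over the libraries, with the genes that rose above the line, in order of role, and the genes that fell below it. The Epor-eGFP- and Epor-eGFP+ columns separate in all 30 rows, and among the genes that rose Epor-eGFP+ library 1 is often the palest of its group.

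Within Epor-eGFP+ the libraries did not sit level. Of the 55 genes 34 were lowest in library 1, 9 in library 0 and 12 in library 2, and 27 were highest in library 2. The summed macrophage markers were 4085, 2364 and 8945 FPKM in libraries 0, 1 and 2 of that group, and the summed erythroid markers 1336, 658 and 2107 FPKM. The same order, library 2 above 0 above 1, was found in 22 of the 55 genes. It was found in 10 of the 25 that rose, against 733 of the 2489 genes called higher in the whole table. Gsta4, Gsto1, Prdx1, Sod1 and Cat were among the 22, as were Mgst1 and Txnip, which fell. The order was found in 14 of the 14 macrophage markers called higher and in 0 of the 15 erythroid markers called higher. The 25 genes that rose had their peak in library 0 in 11 cases, in library 1 in 3 and in library 2 in 11. Gclm, Gclc, Gstm5, Gstt2, Glrx5, Prdx2 and Prdx3 were among those highest in library 0. The part of either marker list, or of the library totals, in these genes was not tested.

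The ranges within a group were otherwise modest. The median ratio of the highest to the lowest library was 1.25 in Epor-eGFP+ and 1.23 in Epor-eGFP-, and 4 genes exceeded a ratio of 2 in Epor-eGFP+, which were Gsta4, Gstk1, Gstm7 and Gstp2. Neutrophil markers summed to 14043, 17245 and 13275 FPKM over the Epor-eGFP+ libraries, and Prdx5 (359.9, 383, 358 FPKM), Gsr (188, 201, 163 FPKM) and Nqo2 (12.6, 12.8, 12.5 FPKM) had the same order, with library 1 highest and library 2 lowest. The order was not particular to neutrophil markers. The promyelocyte granule markers, all higher in Epor-eGFP+, had it too, at 8509, 10037 and 8066 FPKM. Txnip (147, 132, 191 FPKM) and Mgst1 (97.3, 75.8, 139 FPKM), the other genes that fell, had the opposite order. In Epor-eGFP- the neutrophil markers were at 39402, 33898 and 25120.2 FPKM. There Prdx5 (697, 626, 738 FPKM), Gsr, Txnip and Mgst1 had another order, and Nqo2 had the same. The part of the neutrophil or promyelocyte markers was not tested either.

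Genes around the antioxidant set were counted from lists that leave out its members, and each share is to be read against 22.7% higher and 26.3% lower among all tested genes. Without both libraries numbered 0, 4.49% of all tested genes were higher and 8.40% lower, and without Epor-eGFP+ library 0, 14.9% and 18.8%. Counts in those settings are to be read against these shares. Of 12 tested regulators of NRF2 6 fell (50%), 2 rose and 4 had no call (median -0.20). Of the 2 that rose Maff, a small Maf protein, was tested only because of its level in Epor-eGFP+, so it had to differ, and without it 1 of 11 rose (median -0.29). Bach1, a repressor at antioxidant response elements that heme inactivates, was at 19.0, 21.6 and 18.8 FPKM in the Epor-eGFP+ libraries against 45.2, 40.6 and 57.3 FPKM in the Epor-eGFP- libraries (-1.22, adjusted p = 0.000861). Nfe2, the blood cell relative of NRF2, fell by 1.09 on the log2 scale, and Mafg, a small Maf partner of these factors, fell by 0.68. Nfe2l2, the gene of NRF2 itself, was at 55.7, 60.9 and 58.3 FPKM in the Epor-eGFP+ libraries against 70.9, 67.6 and 75.8 FPKM in the Epor-eGFP- libraries (-0.29, adjusted p = 0.0170), and Keap1, its inhibitor, did not pass (-0.05, adjusted p = 0.679). Nfe2l1, a factor related to NRF2, rose by 0.65. Leaving out both libraries numbered 0 left 3 genes of this list lower and 0 higher, and without any single Epor-eGFP- library or Epor-eGFP+ library 0, 1 was higher.

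Of 22 tested NRF2 targets outside the antioxidant set 11 rose (50%), 5 fell (22.7%) and 6 had no call (median 0.41). Marco was tested only because of its level in Epor-eGFP+, and without it 10 of 21 rose, with a median of 0.15. Hmox1, which degrades heme, was at 983, 439.6 and 1754 FPKM in the Epor-eGFP+ libraries against 81.6, 60.6 and 92.6 FPKM in the Epor-eGFP- libraries (3.55, adjusted p = 0.00148). Ephx1, an epoxide hydrolase, rose by 2.65, Marco, a scavenger receptor, by 2.56 and Blvrb, a biliverdin reductase, by 2.11. The genes that fell included G6pdx, Pgd and Taldo1 of the pentose phosphate pathway, which are also in the list of NADPH supply. Within Epor-eGFP+ 9 of the 11 targets that rose, Hmox1, Ephx1, Marco and Blvrb included, had the order library 2 above 0 above 1. The macrophage and the erythroid marker sums both had that order, as did 733 of the 2489 genes called higher in the whole table. Among single markers called higher, 14 of 14 macrophage genes had it and 0 of 15 erythroid genes. Without both libraries numbered 0, 2 targets were called higher, beside 4.49% of all tested genes. Whether the cells of either marker list had a part was not tested.

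Among 16 tested genes of the supply of NADPH, which both branches consume, 4 rose (25%), 6 fell (37.5%) and 6 had no call, with a median of -0.18. The share that rose was near that of all tested genes. G6pdx, which opens the pentose phosphate pathway, was at 111, 117 and 116 FPKM in the Epor-eGFP+ libraries against 201, 203 and 184 FPKM in the Epor-eGFP- libraries (-0.77, adjusted p = 0.000604), and Nadk, which makes NADP from NAD, fell by 0.91 on the log2 scale. Mthfd1, of cytosolic folate metabolism, rose by 1.56 and Idh2, a mitochondrial isocitrate dehydrogenase that makes NADPH, by 0.82. The counts were 1 higher and 3 lower without both libraries numbered 0, and without Epor-eGFP+ library 0, 2 were higher.

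Of 12 tested genes of cysteine, methionine and glutamate supply 7 rose (58.3%), 1 fell and 4 had no call (median 0.41). Slc7a5, an amino acid transporter, rose by 1.18 (adjusted p = 0.00731), its partner chain Slc3a2 by 1.17 and Ahcy, which releases homocysteine, by 0.83. Glud1, a mitochondrial glutamate dehydrogenase, fell by 0.79 on the log2 scale. Slc7a11, the cystine transporter chain that also pairs with Slc3a2, had a mean below 1 FPKM and was not tested. It was at 0.651, 0.620 and 0.528 FPKM in the Epor-eGFP+ libraries against 1.41, 1.15 and 0.909 FPKM in the Epor-eGFP- libraries. No gene of this list (0) was called higher without both libraries numbered 0, and without Epor-eGFP+ library 1, 2 were lower. Of 13 tested genes of glutathione breakdown, export and glyoxalases 4 rose (30.8%), 1 fell and 8 had no call (median 0.22). The genes that rose were the peptidases Lap3 (1.88) and Anpep (1.51), Slc25a39, which carries glutathione into mitochondria (0.50), and Glo1, a glyoxalase (0.47). Without both libraries numbered 0, 1 was higher, and the single lower gene lost its call without Epor-eGFP- library 0 or 2 or Epor-eGFP+ library 1 or 2, whereas 2 were lower without Epor-eGFP- library 1.

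**Figure D5:**
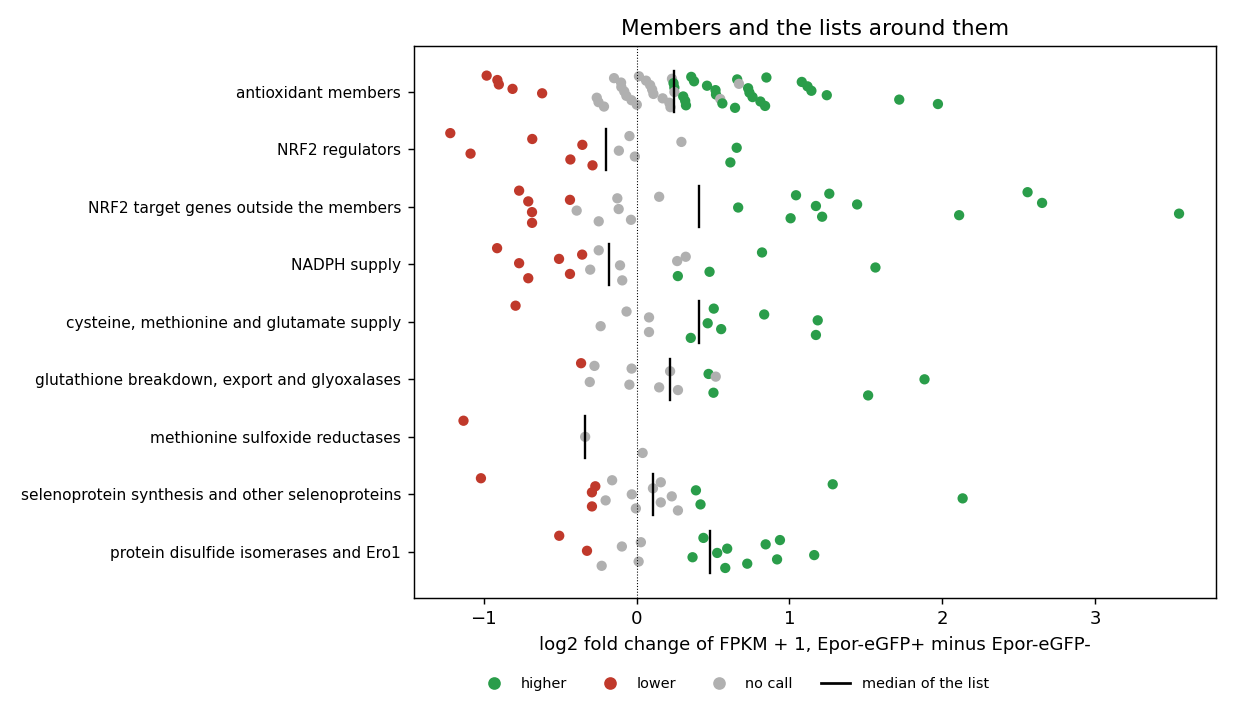
Log2 fold changes of the tested genes in the lists around the antioxidant set, each point a gene, coloured by call, with the antioxidant genes in the top row, the median of each list marked and a dotted line at 0. The medians of NRF2 targets and of cysteine, methionine and glutamate supply are near 0.41 (0.15 for NRF2 targets without Marco), and those of NRF2 regulators and NADPH supply are below 0.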

How the data were processed

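Total RNA of sorted bone marrow cells was sequenced in 6 libraries made with a TruSeq RNA kit, per the labels' protocols. The authors deposited a single table of FPKM per gene. Cufflinks 2.2.1, TopHat2 2.1.0, Trimmomatic 0.35 and bcl2fastq 2.19.1.403 are named per the submitters' processing notes, without role or order, as is build mm10. Which annotation, gene filter or library scaling the authors used is not given in the sources used here. FPKM holds no counts, so depth is unknown and no counting interval can be given.

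From the FPKM, the 10964 genes whose 6-library mean reached 1 FPKM were tested with limma 3.58.1 in R 4.3.3 on log2(FPKM + 1), group as the only term, eBayes with a mean-variance trend, two-sided, with Benjamini-Hochberg adjustment over all tested genes and a threshold of 0.05. Fold changes on this scale understate changes of low genes. The test was checked on simulated data. Columns are numbered 0 to 2 and the labels 1 to 3, so columns were matched to groups only.

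Libraries of the same column number deviated together from their group means across genes (r = 0.252, 0.377 and 0.348, against -0.387 to 0.0654 for other pairs). By the criterion of every same-number r above 0.1 the numbers pair the libraries, although no label says what they mark. The primary fit has no block, so its p-values and the shares of all tested genes beside them do not use this pairing. The fit with the library number as a block is among the alternatives.

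Genes shown in every library were those called with an absolute log2 fold change of at least 1, and the most abundant of each role class. Further genes given by library were chosen after their values were seen. From each pathway list up to 4 called genes with the largest change were named. Nfe2l2, Keap1 and Slc7a11 were named outside this rule, after their values were seen. The genes and lists were chosen with earlier results of these data known. Gene positions are from GENCODE vM21 (GRCm38), and promoters from RefSeq GRCm38.p6. Shared sequence was counted as 50-base stretches of the longest transcript of a gene that occur in transcripts of other genes. It was 10.9% for Prdx1 and 8.96% for Prdx2. Exons of Gss, Prdx2, Txndc5, Txndc11, Txndc16 and Txnl1 overlap genes on the other strand, and those of Gstt3 and Txnl4a a gene on the same strand. The named kit does not mark strand. Alternatives were other scalings, pseudocounts and filters, no trend, a replicate block, and leaving out libraries.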

Additional observations from a re-analysis of the deposited data

How the results depend on the processing

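After scaling all libraries to the same total, 28 antioxidant genes were higher and 5 lower, and 59.5% of all calls of the table were higher against 46.3% as deposited. The median of all tested genes was then 0.08 and that of the antioxidant genes 0.34. Under the upper quartile or quantile normalization 27 were higher and 5 lower, without genes under 5 FPKM 20 and 5 of 45, and with the replicate block 27 and 5. Gpx4 was at 0.0203 under the total and 0.12 under quantile normalization, Nqo1 at -0.00670 with a pseudocount of 0.1 and -0.13 under quantile normalization, Prdx6 at 0.0331 under the total, and Txndc17 at 0.0652 under the total, 0.0276 under the upper quartile and 0.0312 under quantile normalization. None of these was called. The cause was not tested.

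Among the lists, NRF2 regulators had 1 higher without genes under 5 FPKM, and cysteine supply 2 lower with no filter. Lower genes of glutathione breakdown numbered 0 under the total or upper quartile and 2 with the replicate block, sulfoxide reductases 2 with the block, selenoproteins 1 under the total or upper quartile and 2 under quantile normalization, and isomerases 1 under the total, the upper quartile or the block.

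With a library, or a pair of the same number, left out in turn, 10 to 25 antioxidant genes were higher and 2 to 7 lower. Of all tested genes 4.49% to 22.6% were then higher and 8.40% to 24.6% lower. The ranges of higher and lower genes in that leave-one-out were 0 to 3 and 3 to 6 for NRF2 regulators, 1 to 5 and 3 to 7 for NADPH supply, 0 to 8 and 1 to 2 for cysteine supply, 1 to 6 and 0 to 2 for glutathione breakdown, 1 to 6 and 1 to 4 for selenoproteins, and 3 to 10 and 0 to 2 for isomerases, with 2 to 11 NRF2 targets higher and 1 to 2 sulfoxide reductases lower. Log2 fold changes that turned sign ran from -0.0687 to 0.45 for Adgre1, -0.11 to 0.37 for Cat, -0.18 to 0.0631 for Gpx4, -0.18 to 0.16 for Nqo1, -0.10 to 0.19 for Prdx4, -0.0710 to 0.27 for Sod1, -0.15 to 0.0444 for Txndc17 and -0.0534 to 0.0916 for Txndc5. The block gained Gss, Mgst2 and Txndc12, lost Txnrd1 and changed no other call of an antioxidant gene. Depth is unknown, so no limit from counting could be set.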

Other observations

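Genes for making and repairing protein thiols outside the antioxidant set were counted in the same fit. Of 16 tested disulfide isomerases and Ero1 oxidases, which form disulfides in the endoplasmic reticulum, 10 rose (62.5%), 2 fell (12.5%) and 4 had no call (median 0.48), against 22.7% higher and 26.3% lower among all tested genes. Pdia5 rose by 1.16 on the log2 scale (limma, adjusted p = 0.00405), Creld2 by 0.94, Pdia4 by 0.92 and Pdia6 by 0.84, and each was higher in all 3 Epor-eGFP+ libraries than in any Epor-eGFP- library. Pdia4 was at 80.2, 94.0 and 85.9 FPKM in the Epor-eGFP+ libraries against 39.7, 52.4 and 44.6 FPKM in the Epor-eGFP- libraries. Leaving out both libraries numbered 0 left 3 higher and 0 lower, beside 4.49% and 8.40% of all tested genes. Without Epor-eGFP- library 0 or 2 or Epor-eGFP+ library 0 or 2, 1 was lower.

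Of 17 tested genes of selenoprotein synthesis and other selenoproteins 4 rose, 4 fell and 9 had no call (median 0.11). The share in each direction, 23.5%, was near that of all tested genes. Sepp1, the secreted selenium carrier, was at 759, 401 and 1478 FPKM in the Epor-eGFP+ libraries against 176, 142 and 211 FPKM in the Epor-eGFP- libraries (2.13, adjusted p = 0.00729). Within Epor-eGFP+ it had the order library 2 above 0 above 1, as the macrophage and the erythroid marker sums did. Of the single markers called higher, 14 of 14 macrophage genes and 0 of 15 erythroid genes had that order. The relation was not tested. Dio2, a deiodinase, rose by 1.28 and Eefsec, the elongation factor for selenocysteine, by 0.42, while Selm fell by 1.02. Without both libraries numbered 0, 1 was higher and 1 lower, beside 4.49% and 8.40% of all tested genes. With Epor-eGFP- library 0 or 2 or Epor-eGFP+ library 0 or 2 left out, 1 was lower. Of the 3 tested methionine sulfoxide reductases Msrb1, itself a selenoprotein, fell, at 195, 186 and 184 FPKM in the Epor-eGFP+ libraries against 404, 358 and 492 FPKM in the Epor-eGFP- libraries (-1.13, adjusted p = 0.000842), and the other 2 had no call, while without Epor-eGFP- library 2, 2 were lower.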
